A study of Homo sapiens with 12 samples.

Results

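The comparison set 3 human cell lines, labelled with the names of myeloma lines and given all 3 drugs of a combination, against the same lines given none. It used the 6 arrays whose treatment label names the combination or the control, out of 12 arrays in the series, and paired them by cell line, with 1 array for each line and treatment. In the combination group, called Combo here, cells received the BET bromodomain inhibitor CPI203 at 0.01 µM, lenalidomide at 5 µM and dexamethasone at 0.05 µM for 6 h. The control group received no drug by its label, which does not say whether a vehicle was added. The other arrays of the series, which entered the fit and a later comparison, came from the same lines with CPI203 alone at 0.01 µM, or with the same doses of lenalidomide and dexamethasone and no CPI203 (LenDex). The labels name the lines ARP1, JJN3 and RPMI-8226. Lines of these names are established lines grown in culture from multiple myeloma, a malignancy of plasma cells. Markers on the arrays labelled JJN3 and RPMI-8226, given below, went against this in part. Cells were set at 500000 per ml before treatment, and 150 ng of total RNA was labelled for the array. By the labels each line stands for 1 tumour and no line was repeated, and lenalidomide was never given without dexamethasone.

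Each drug acts on gene expression by a different route. BET proteins read acetylated histones and recruit the elongation kinase P-TEFb, so that an inhibitor such as CPI203 releases them from chromatin, and MYC is a well known sensitive gene in myeloma. Lenalidomide binds cereblon, the substrate receptor of a ubiquitin ligase, and redirects it to the lymphoid transcription factors Ikaros (IKZF1) and Aiolos (IKZF3), whose protein is then degraded and which maintain IRF4 and MYC in myeloma cells. Dexamethasone activates the glucocorticoid receptor, a transcription factor that switches on genes such as TSC22D3 and FKBP5 and kills many myeloma and lymphoid cells. By its title, the study was about better lenalidomide activity with CPI203 added, and about Ikaros and MYC signalling.

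Levels are log2 probe set values as the authors deposited them, and triplets of values are in the order ARP1, JJN3, RPMI-8226. A difference is Combo minus control on that log2 scale, averaged over the 3 lines, with its standard error (SE) from a limma fit of line and treatment over all 12 arrays. A gene was called higher or lower at a Benjamini-Hochberg adjusted p under 0.05 over the 15173 genes tested, each represented by 1 probe set. Array medians lay between 5.349 and 5.375 for Combo and between 5.304 and 5.357 for control. RNA integrity was read from control probe sets: the GAPDH probe set at the 3' end minus that at the 5' end lay between -0.25 and -0.10 on Combo arrays and between -0.28 and -0.20 on control arrays, and the same measure for actin between 0.29 and 0.41 on Combo arrays and between 0.27 and 0.40 on control arrays.

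On the arrays labelled JJN3 and RPMI-8226 the markers went against the label in part. SDC1 (CD138), the defining surface protein of plasma cells, was at 11.78 in Combo and 12.23 in control cells of ARP1, but at 5.36 in Combo and 5.79 in control cells of JJN3 and at 5.18 in Combo and 5.38 in control cells of RPMI-8226. PRDM1, the transcription factor that defines plasma cells, was at 10.96, 5.21 and 5.09 in Combo and 11.55, 5.97 and 5.51 in control. MS4A1 (CD20), a B cell marker that plasma cells lose, was at 5.33, 11.70 and 11.48 in Combo and at 4.70, 11.89 and 12.06 in control. The arrays labelled JJN3 and RPMI-8226 thus had low SDC1 and PRDM1 and high MS4A1. Other plasma cell genes were split there. IRF4 was high, at 12.98 and 13.31 in Combo and 12.50 and 12.57 in control. So was XBP1, a secretory transcription factor, at 10.35 and 10.27 in Combo and 10.60 and 10.64 in control. GPRC5D (5.59 and 5.17 in control) and CD38 (5.63 and 5.80) were low, against 11.10 and 9.08 in ARP1 control cells. Of other B cell markers, CD79A (11.43 and 10.96 in control) and CR2 (10.58 and 10.20) were high there, against 5.71 and 5.40 in ARP1. FCRLA (5.43 and 5.67) and BACH2 (5.30 and 5.12) were low there. The median of the 24 plasma cell genes was 11.23, 7.52 and 7.58 on Combo arrays and 11.32, 8.35 and 8.75 on control arrays. JJN3 and RPMI-8226 arrays correlated with each other at 0.963 to 0.981, against 0.867 to 0.887 with ARP1 arrays, across the genes tested. The control array labelled JJN3 also stood apart within its line: the antibody chain transcripts IGKC and IGHA1 were at 9.32 and 9.84 there, against 5.55 and 6.24 on the JJN3 Combo array, 5.35 and 5.72 on the JJN3 CPI203 array and 5.11 and 5.52 on the JJN3 LenDex array. JCHAIN, which joins antibody units, was at 9.63 on that control array, against 7.46 on the JJN3 Combo array. Erythroid factors differed on JJN3 arrays along the drug groups instead, with KLF1 at 5.61 in Combo and 5.99 in CPI203, against 8.32 in LenDex and 8.34 in control, so they did not set the control array apart from the LenDex array. Of other cell types, T cell, monocyte and fibroblast markers had medians near the floor of the array in both groups. The median of the T cell markers on an array lay between 4.96 and 5.14 for Combo and between 4.89 and 5.14 for control, that of monocyte and macrophage markers between 4.88 and 5.07 for Combo and between 4.93 and 5.02 for control, that of fibroblast markers between 4.86 and 4.97 for Combo and between 4.80 and 4.93 for control, and that of epithelial markers between 5.10 and 6.10 for Combo and between 5.26 and 6.30 for control. Single epithelial and erythroid genes were far above the floor in both groups: the keratin KRT18 was at 9.21 in Combo and 9.07 in control cells of JJN3, and the fetal globin HBG1 at 12.26, 13.25 and 8.53 in Combo and 12.40, 13.30 and 6.77 in control. Single T cell genes were above it as well. CD3D was at 7.68 in Combo and 7.59 in control cells of JJN3, and ZAP70 at 7.04 in Combo and 7.54 in control cells of ARP1. No tested member of the T cell, monocyte, fibroblast, epithelial or erythroid lists was called.

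With all 3 drugs, 9 of 37 glucocorticoid-induced genes, 11 of 48 histone genes and 7 of 12 genes known to rise under BET inhibitors were higher, while 27 of 52 MYC target genes of ribosome production and growth were lower, as were MYC, IKZF1 and IKZF3. In all, 1388 of 15173 genes were called (9.15%), of which 539 were higher (3.55%) and 849 lower (5.6%) in Combo cells. The balance moved with the processing: 666 were higher and 721 lower after cyclic loess, and 1191 higher and 1028 lower without the ARP1 arrays. At least 2-fold changes were called for 114 genes in each direction, and 537 of the genes called higher and 848 of those called lower moved the same way in all 3 lines. Combo and control arrays did not overlap for 232 of the genes called higher and 406 of those called lower, where 10.6% of all genes tested were without overlap. The median difference over all genes tested was 0.01, so changes here are relative to a bulk of transcripts that was set level. At an unadjusted p under 0.05 there were 3692 genes (24.3%). The call count rested on the JJN3 and RPMI-8226 arrays: without the JJN3 arrays 0 genes were called (2236 at an unadjusted p under 0.05), without the RPMI-8226 arrays 2, and without the ARP1 arrays 2219. Without the JJN3 control array alone 300 genes were called, 71 higher and 229 lower, of which 296 were among the 1388. With JJN3 and RPMI-8226 averaged into 1 array per treatment there were 3 calls (CXCR4, FKBP5 and SAMD9L), with no pairing by line 3, and with only the 6 Combo and control arrays 2. All 1388 genes kept the sign of their difference without each line in turn, without that control array and with the 2 lines averaged. Leaving out or averaging lines could not turn a gene that moved the same way in all 3, as 537 and 848 of them did. In these bulk samples a fall in the number of cells that carry a transcript and a fall of that transcript in each cell cannot be told apart.

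**Figure D1:**
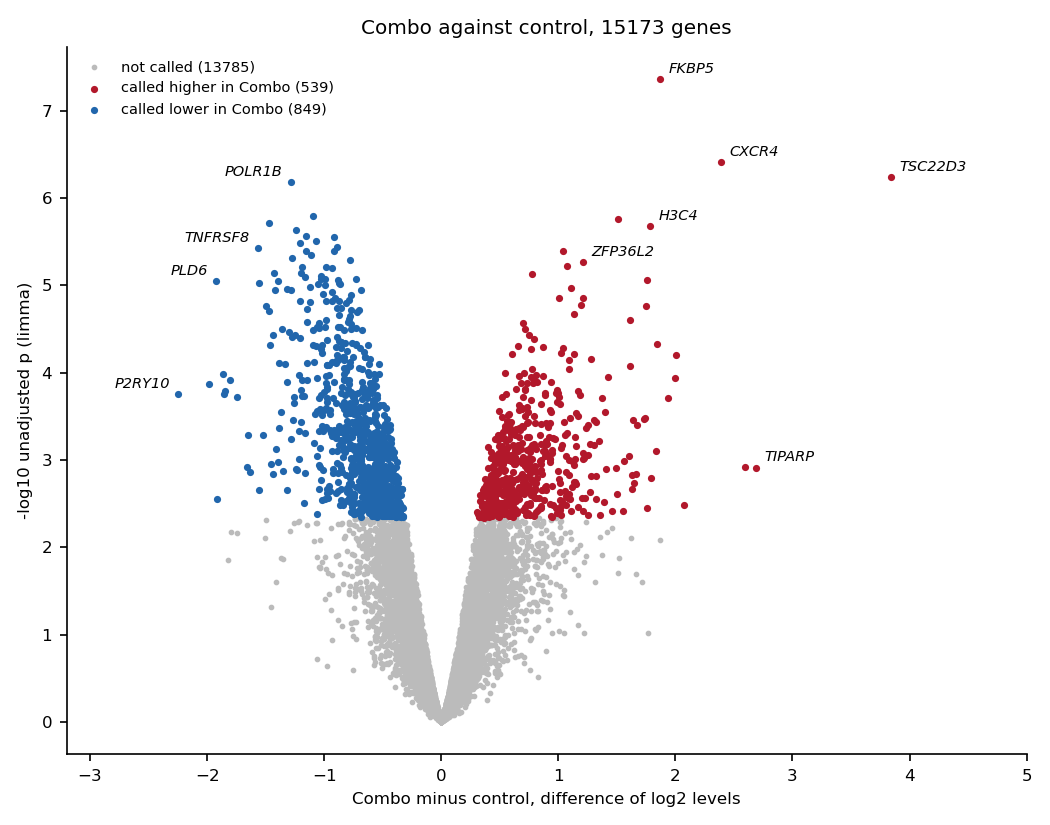
Each point is 1 of 15173 genes, with the Combo minus control difference of log2 levels on the x axis and minus log10 of the unadjusted limma p on the y axis. Red points are the 539 genes called higher and blue points the 849 called lower in Combo cells, grey points were not called. TSC22D3 lies farthest to the right at 3.84, and FKBP5 has the smallest p.

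The largest rise was that of TSC22D3 (GILZ), a glucocorticoid-induced inhibitor of AP-1 and NF-kB. TSC22D3 stood at 12.09, 13.22 and 13.11 in Combo cells and at 7.59, 9.73 and 9.57 in control cells, a difference of 3.84 ± 0.34 (SE, 3 lines), or 14.3-fold (adjusted p = 0.00249). Every Combo array lay above every control array, and ARP1, the lowest of the control arrays, had the largest gain. FKBP5, a co-chaperone that dampens the glucocorticoid receptor and is one of its standard targets, had the smallest p of all genes. FKBP5 stood at 12.78, 12.76 and 12.32 in Combo cells and at 10.70, 10.75 and 10.80 in control cells, a difference of 1.87 ± 0.12 (adjusted p = 0.000661). The control arrays were nearly level with each other and every Combo array lay above them. CXCR4, the receptor that homes plasma cells to CXCL12 in the bone marrow, followed the same pattern. CXCR4 stood at 10.79, 11.55 and 11.72 in Combo cells and at 8.17, 8.71 and 10.01 in control cells, a difference of 2.39 ± 0.20 (adjusted p = 0.00249). The groups did not overlap, and RPMI-8226 was the highest line in both.

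Other large rises were uneven between the lines. TIPARP, an ADP-ribosyltransferase that limits aryl hydrocarbon receptor signalling, rose by 2.69 ± 0.60 (adjusted p = 0.0249). TIPARP stood at 8.91, 11.57 and 10.53 in Combo cells and at 8.53, 7.41 and 7.02 in control cells. Its gain was small in ARP1 and more than 3 log2 units in both other lines. SERTAD1, a CDK4-binding coactivator, was at 8.19, 9.85 and 9.22 in Combo cells and at 6.53, 7.14 and 5.80 in control cells, a difference of 2.60 ± 0.58 (adjusted p = 0.0247). KLHL24, a ubiquitin ligase adaptor, rose by 2.002 ± 0.30 and DDIT4 (REDD1), an inhibitor of mTORC1 that glucocorticoids and stress induce, by 1.94 ± 0.34. DDIT4 stood at 13.71, 13.11 and 13.21 in Combo cells and at 11, 11.75 and 11.46 in control cells, with no overlap between the groups. FGFR1, a receptor tyrosine kinase, rose by 1.84 ± 0.27, TSPYL2, a nucleosome assembly factor that restrains proliferation, by 1.76 ± 0.21, and the histone gene H3C4 by 1.79 ± 0.18, each without overlap. The metallothionein MT1X, which binds zinc, rose by 1.998 ± 0.32, and PER1, a clock gene with glucocorticoid response elements, by 1.76 ± 0.46. PER1 stood at 5.67, 8.56 and 7.68 in Combo cells and at 5.64, 5.44 and 5.55 in control cells, so that the ARP1 gain was close to 0. KLF6 and JUND, transcription factors of the early response, rose by 1.84 ± 0.38 and 1.79 ± 0.41, but ARP1 Combo cells (8.98 for KLF6 and 7.70 for JUND) lay below the highest control array for both. UGT2B7, which conjugates steroids to glucuronic acid, rose by 2.08 ± 0.54 with overlap. Without the JJN3 control array, TSC22D3, CXCR4, KLHL24, MT1X, DDIT4, FKBP5, FGFR1, H3C4 and TSPYL2 were still called, and TIPARP, SERTAD1, UGT2B7, KLF6, JUND and PER1 were not.

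**Figure D2:**
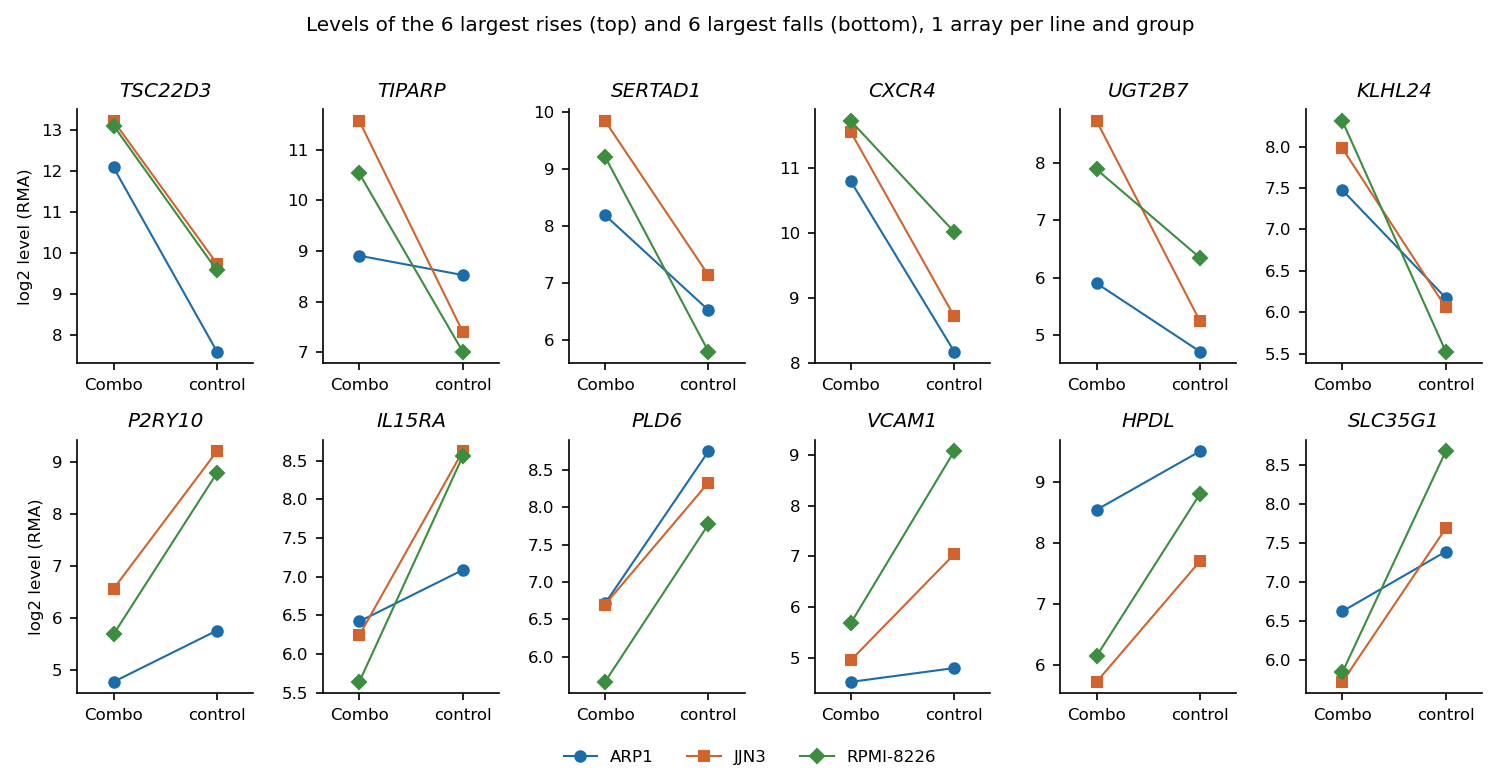
Points are log2 levels on the y axis for Combo (left) and control (right), joined within ARP1 (blue circles), JJN3 (orange squares) and RPMI-8226 (green diamonds), 1 array each, for the 6 largest rises (top) and 6 largest falls (bottom). TSC22D3 is higher in Combo by 3.49 to 4.50 in every line, while the ARP1 line is nearly flat for TIPARP and VCAM1.

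Among the largest falls were surface receptors of lymphoid cells. P2RY10, a receptor for lysophosphatidylserine on lymphocytes, fell by 2.24 ± 0.38 (adjusted p = 0.011). P2RY10 stood at 4.78, 6.56 and 5.69 in Combo cells and at 5.76, 9.21 and 8.79 in control cells. The fall was largest in JJN3 and RPMI-8226, and ARP1 control cells, already low, lay among the Combo arrays. IL15RA, which presents interleukin 15, was at 6.42, 6.24 and 5.64 in Combo cells and at 7.09, 8.62 and 8.56 in control cells and fell by 1.99 ± 0.33 (adjusted p = 0.01), with no overlap. SLAMF7, the surface antigen that the antibody elotuzumab binds on myeloma cells, fell by 1.85 ± 0.31 (adjusted p = 0.0109). SLAMF7 stood at 8.43, 7.17 and 6.83 in Combo cells and at 9.57, 9.99 and 8.41 in control cells; it was lower in Combo cells of each line, and ARP1 Combo and RPMI-8226 control cells were nearly level. TNFRSF8 (CD30) fell by 1.57 ± 0.17 (adjusted p = 0.00343) and VCAM1, the ligand of integrin alpha4 beta1, by 1.92 ± 0.48 (adjusted p = 0.0386). VCAM1 stood at 4.53, 4.96 and 5.69 in Combo cells and at 4.80, 7.04 and 9.07 in control cells, so ARP1 was near the floor in both groups and the fall came from both other lines.

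Other large falls were of genes inside the cell. PLD6, a phospholipase of the mitochondrial surface, fell by 1.92 ± 0.23 (adjusted p = 0.00351). PLD6 stood at 6.71, 6.70 and 5.67 in Combo cells and at 8.75, 8.33 and 7.77 in control cells, with no overlap. HPDL, a mitochondrial dioxygenase, fell by 1.87 ± 0.30, SLC35G1, a membrane protein of the endoplasmic reticulum, by 1.85 ± 0.32, and BEND3, a DNA-binding transcriptional repressor, by 1.80 ± 0.29. BEND3 stood at 7.47, 7.04 and 6.60 in Combo cells and at 9.08, 8.69 and 8.75 in control cells, with every Combo array below every control array. TASL, an adaptor for endosomal Toll-like receptors, fell by 1.74 ± 0.30, CACNB2, a calcium channel subunit, by 1.66 ± 0.37, LTV1, an assembly factor of the small ribosomal subunit, by 1.65 ± 0.32, and MACC1, a regulator of MET, by 1.63 ± 0.37. INHBE, an inhibin chain, fell by 1.56 ± 0.38 and SAMD9L, an interferon-inducible growth inhibitor, by 1.56 ± 0.19. SAMD9L stood at 6.56, 6.53 and 6.19 in Combo cells and at 8.26, 7.45 and 8.23 in control cells, again with no overlap. Of these 15 largest falls, PLD6, HPDL, BEND3, TNFRSF8 and SAMD9L were also called without the JJN3 control array.

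Of the gene lists, that of genes known to rise under BET inhibitors had calls in one direction. Of 12 tested, 7 were higher and 0 lower in Combo cells, where 3.55% of all genes were higher, and the median difference was 1.08 against 0.01 over all genes. For this and each later list, the shares to compare are 3.55% of all genes called higher and 5.6% called lower. SERPINI1 (neuroserpin), a protease inhibitor used as a marker of BET inhibitor exposure, rose by 1.63 ± 0.40 (adjusted p = 0.0342). SERPINI1 stood at 7.41, 8.78 and 8.78 in Combo cells and at 7.10, 6.39 and 6.59 in control cells, with a small gain in ARP1 and gains above 2 in both other lines. HEXIM1, the inhibitor of P-TEFb that responds to BET inhibitors in many cells, was at 10.48, 11.66 and 11.53 in Combo cells and at 10.36, 10.28 and 9.85 in control cells, with no overlap, but its difference of 1.06 ± 0.31 was not called (adjusted p = 0.0637). Of 5 HEXIM1 probe sets tested singly, 2 were called higher, with differences from 1.06 to 1.51 over the 5. POLR2A, the catalytic subunit of RNA polymerase II, rose by 1.098 ± 0.28. The other 5 called genes were histone genes, which are described next. Leaving out the JJN3 control array, 2 of the 12 were called higher, with a median of 1.097.

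Some replication-dependent histone genes of every class were higher. Of 48 tested, 11 were higher and 0 lower, 45 had a positive difference, and the median was 0.38. The called genes were 5 of 16 H2B genes, 3 of 10 H2A genes, 1 of 9 H3 genes, 1 of 8 H4 genes and 1 of 5 linker H1 genes. H2BC5 stood at 9.62, 9.15 and 8.97 in Combo cells and at 8.43, 7.60 and 7.19 in control cells, a rise of 1.51 ± 0.15 (adjusted p = 0.00343). Each line gained by more than 1 and the groups did not overlap. H2AC6 stood at 8.72, 8.08 and 7.37 in Combo cells and at 7.61, 6.34 and 5.03 in control cells, a rise of 1.73 ± 0.32, and here the lines differed so much in level that the groups overlapped. H2BC11 rose by 1.42 ± 0.23, H2BC21 by 1.37 ± 0.24, H2BC8 by 1.27 ± 0.31, H2AC8 by 1.503 ± 0.37, H2AC20 by 1.05 ± 0.21, H2BC4 by 0.80 ± 0.15, H1-3 by 0.80 ± 0.19 and H4C8 by 0.76 ± 0.16. Histone genes are near-identical copies, so a probe set may read several of them. Leaving out the JJN3 control array, 3 of the 48 were called higher, with a median of 0.32.

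H2B promoters are known for an octamer that the factor OCT1 binds, and the stretches below are shown because 4 of the 5 H2B genes called higher carried it. The exact letters ATTTGCAT, on either strand, were found in 4 of 5 promoter windows of H2B genes called higher, in 12 of 16 windows of all H2B genes tested and in 1.51% of the 12192 windows of all genes tested. A window runs from 250 bases before to 50 bases after the RefSeq gene start on GRCh38.p14. The octamer is in capitals in each stretch, which reads 5′ to 3′ in the gene's direction and stops at the gene start or before it.
H2BC11: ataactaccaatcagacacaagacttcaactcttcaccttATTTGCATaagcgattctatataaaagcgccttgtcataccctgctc
H2BC21: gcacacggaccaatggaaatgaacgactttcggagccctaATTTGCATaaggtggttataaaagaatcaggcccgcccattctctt
H2BC8: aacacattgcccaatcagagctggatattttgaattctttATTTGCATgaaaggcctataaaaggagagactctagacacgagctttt
H2BC4: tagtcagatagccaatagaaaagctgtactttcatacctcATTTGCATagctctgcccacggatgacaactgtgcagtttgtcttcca
They lie at chr6:27132796-27132882 (minus strand) for H2BC11, chr1:149886683-149886768 (minus strand) for H2BC21, chr6:26216689-26216776 (minus strand) for H2BC8 and chr6:26124002-26124089 (minus strand) for H2BC4. The letters TATAAA, on either strand, were found in 9 of 11 windows of histone genes called higher, against 7.76% of all windows. For H2B genes alone they were in 5 of 5 windows of those called higher and in 11 of 16 windows of all those tested. H2BC8 and H2BC4 share their windows in part with the H2A genes H2AC8 and H2AC6, which run the other way. The TATAAA counted for H2BC8 is the same stretch as that for H2AC8, and that for H2BC4 the same as for H2AC6.

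The machinery that BET inhibitors act on came next. Of 15 tested genes of P-TEFb, its inhibitors, the super elongation complex and the BET proteins, 1 was higher and 1 lower. CDK9, the kinase of P-TEFb, rose by 0.43 ± 0.11 (adjusted p = 0.038), with 8.56, 8.43 and 8.70 in Combo cells and 8.21, 8.10 and 8.09 in control cells, groups that did not overlap. MLLT1, a reader in the super elongation complex, fell by 0.73 ± 0.14 (adjusted p = 0.015). BRD2 was at 10.62, 11.14 and 11.49 in Combo cells and at 10.54, 10.81 and 10.37 in control cells, with a difference of 0.51 ± 0.18 that was not called (adjusted p = 0.105). Without the JJN3 control array 0 of the 15 were called, and without the ARP1 arrays 4 were higher and 2 lower. Of 16 tested genes known to fall under BET inhibitors in blood cancers, 5 were lower and 0 higher, with 5.6% of all genes lower, and the median was -0.12. They were NFIC, MYB, TCF4, MYC and PTPN6. NFIC, a transcription factor of the nuclear factor I family, was at 7.04, 6.97 and 6.39 in Combo cells and at 8.16, 8.43 and 7.82 in control cells and fell by 1.34 ± 0.21. MYB, a transcription factor of immature blood cells, fell by 0.95 ± 0.17, TCF4, an E protein, by 0.86 ± 0.22, and PTPN6 (SHP-1), a phosphatase that damps B cell receptor signals, by 0.74 ± 0.13.

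MYC, the transcription factor that drives ribosome production and growth, was lower in Combo cells of every line. MYC stood at 11.64, 11.33 and 10.70 in Combo cells and at 12.35, 11.97 and 11.79 in control cells, a fall of 0.81 ± 0.15 (adjusted p = 0.0128), or 1.76-fold. The groups did not overlap, since the highest Combo array, ARP1, lay below the lowest control array, RPMI-8226. Of 12 tested genes of the network of MYC and its partner MAX, 1 was higher and 2 were lower. MXD4, which competes with MYC for MAX, rose by 1.36 ± 0.37 (adjusted p = 0.0481). MXD4 stood at 8.81, 9.21 and 9.26 in Combo cells and at 8.74, 6.84 and 7.62 in control cells, with a gain in ARP1 close to 0. MLX, a MAX-like partner, fell by 0.40 ± 0.08. MYC was still called without the JJN3 control array.

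Of 14 tested genes of the cereblon ligase and its substrates, 3 were lower and 0 higher, all of them substrates. IKZF1 stood at 9.57, 7.94 and 8.84 in Combo cells and at 9.94, 9.80 and 10.25 in control cells, a fall of 1.22 ± 0.26 (adjusted p = 0.0222). IKZF3 stood at 8.40, 7.16 and 7.18 in Combo cells and at 9.01, 8.47 and 8.49 in control cells, a fall of 1.08 ± 0.20 (adjusted p = 0.0135). Both lay without overlap between the groups, with the smallest falls in ARP1, and the arrays measure transcript and not the protein that lenalidomide targets. ZFP91, a zinc finger protein degraded with lenalidomide analogs, fell by 0.55 ± 0.12. CRBN, cereblon itself, was at 6.77, 7.69 and 7.91 in Combo cells and at 6.91, 7.08 and 7.35 in control cells and was not called (adjusted p = 0.361). IRF4, the factor that myeloma cells depend on and that lies downstream of Ikaros, was at 11.92, 12.98 and 13.31 in Combo cells and at 12.26, 12.50 and 12.57 in control cells. Its difference of 0.29 ± 0.17 was not called (adjusted p = 0.344), lower in ARP1 and higher in both other lines. IKZF1 and IKZF3 were not called without the JJN3 control array.

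MYC target genes, many of them for building ribosomes, made up the list with the most calls. Of 52 tested MYC target genes of the nucleolus, translation and nucleotide synthesis, 27 were lower and 0 higher, 50 had a negative difference, and the median was -0.42. PPAN stood at 8.79, 8.60 and 8.62 in Combo cells and at 9.71, 9.96 and 10.06 in control cells, a fall of 1.24 ± 0.13 (adjusted p = 0.00343) in this factor of large subunit assembly. All Combo arrays lay below all control arrays. NOP16 stood at 10.46, 9.92 and 9.89 in Combo cells and at 11.32, 11.22 and 11.34 in control cells, a fall of 1.21 ± 0.13 (adjusted p = 0.00343), and BYSL, needed for the small subunit, fell by 1.19 ± 0.14 (adjusted p = 0.00351). RRS1, a nucleolar assembly factor, fell by 1.42 ± 0.17, WDR43, a small subunit factor, by 1.25 ± 0.18, NOP2, an RNA methyltransferase, by 1.02 ± 0.18, DKC1 (dyskerin), which makes pseudouridine, by 0.83 ± 0.12, SLC19A1, the folate carrier, by 1.04 ± 0.23, and PPAT, the first enzyme of purine synthesis, by 0.40 ± 0.11. Without the JJN3 control array 13 of the 52 were called lower, with a median of -0.46.

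Subunits of the polymerases that transcribe ribosomal and transfer RNA were called in one direction. Of 34 tested subunits and factors of RNA polymerases I and III, 15 were lower and 0 higher, 6 had a positive difference, and the median was -0.41; 2 of them, POLR1A and POLR1B, are counted among the MYC targets as well. POLR1B stood at 8.90, 8.63 and 8.63 in Combo cells and at 9.91, 10.01 and 10.08 in control cells, a fall of 1.28 ± 0.11 (adjusted p = 0.00249) in a core subunit of polymerase I. The Combo arrays were nearly level with each other, and each lay more than 1 below the control array of its line. UBTF, which binds ribosomal DNA, fell by 0.92 ± 0.16, RRN3 (TIF-IA), which licenses polymerase I to start, by 0.53 ± 0.11, TAF1A by 0.98 ± 0.18 and POLR1G by 0.87 ± 0.12. Among polymerase III subunits, POLR3G fell by 1.14 ± 0.18 and POLR3K by 0.77 ± 0.10. POLR3K stood at 9.71, 8.92 and 9.59 in Combo cells and at 10.39, 9.83 and 10.32 in control cells, with no overlap. With the JJN3 control array left out, 6 of the 34 were called lower, with a median of -0.43.

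The proteins of the ribosome itself had no calls. Of 34 tested ribosomal protein genes 0 were called by limma, and their differences spanned -0.09 to 0.14 with a median of 0.00. RPS9 stood at 12.91, 12.99 and 13.03 in Combo cells and at 12.91, 12.75 and 12.85 in control cells, the member with the smallest p, at a difference of 0.14 ± 0.09 (adjusted p = 0.415). Of 33 tested mitochondrial ribosome genes, 9 were lower and 0 higher, all 33 differences were negative, and the median was -0.30. MRPS30 fell by 0.70 ± 0.10, MRPL17 by 0.68 ± 0.11, MRPL50 by 0.80 ± 0.15 and MRPS12 by 0.54 ± 0.10. With the JJN3 control array left out, 3 of the 33 were called lower, with a median of -0.30. Of 35 tested aminoacyl-tRNA synthetases, which charge transfer RNA with amino acids, 5 were lower and 0 higher, 2 of 19 cytosolic and 3 of 16 mitochondrial ones. MARS2, the mitochondrial methionine enzyme, fell by 0.92 ± 0.10 (adjusted p = 0.00343). MARS2 stood at 8.79, 9.50 and 9.58 in Combo cells and at 9.86, 10.33 and 10.41 in control cells, with no overlap. YARS2 fell by 0.80 ± 0.13, LARS2 by 0.47 ± 0.12, FARSA by 0.56 ± 0.13 and IARS1 by 0.37 ± 0.10.

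MYC with MAX is known to bind the E-box, and the stretches below show it in MYC target genes called lower in Combo cells. The exact letters CACGTG were found in 11 of 22 promoter windows of MYC target genes called lower, in 17 of 42 windows of all MYC target genes tested, in 15.6% of the 723 windows of genes called lower, in 9.17% of the 469 windows of genes called higher and in 9.4% of the 12192 windows of all genes tested. The word reads the same on both strands. Stretches are printed for 5 of the 11, in which it began before the gene start, from the same RefSeq windows and build. The E-box is in capitals, and no stretch runs past the start except RRP9, whose E-box ends on the first base of the gene.
RRP9: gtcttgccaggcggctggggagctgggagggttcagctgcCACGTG
CDK4: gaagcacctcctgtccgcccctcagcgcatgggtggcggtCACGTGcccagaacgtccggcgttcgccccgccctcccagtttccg
HSPE1: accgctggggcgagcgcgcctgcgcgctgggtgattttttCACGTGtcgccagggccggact
EIF4E: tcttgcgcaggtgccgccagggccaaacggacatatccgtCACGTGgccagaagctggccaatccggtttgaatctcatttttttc
PPAT: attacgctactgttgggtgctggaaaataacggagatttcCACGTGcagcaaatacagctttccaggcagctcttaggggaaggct
They lie at chr3:51941904-51941949 (minus strand) for RRP9, chr12:57752366-57752451 (minus strand) for CDK4, chr2:197500317-197500378 (plus strand) for HSPE1, chr4:98929160-98929245 (minus strand) for EIF4E and chr4:56435752-56435837 (minus strand) for PPAT. RRP9, a protein of the U3 particle that cuts ribosomal RNA, fell by 0.84 ± 0.13, CDK4, the kinase that starts the cell cycle, by 0.60 ± 0.12, HSPE1, a mitochondrial chaperonin, by 0.40 ± 0.09, and EIF4E, the cap-binding protein, by 0.53 ± 0.13. A match describes the letters of a window, and no binding was measured.

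**Figure D3:**
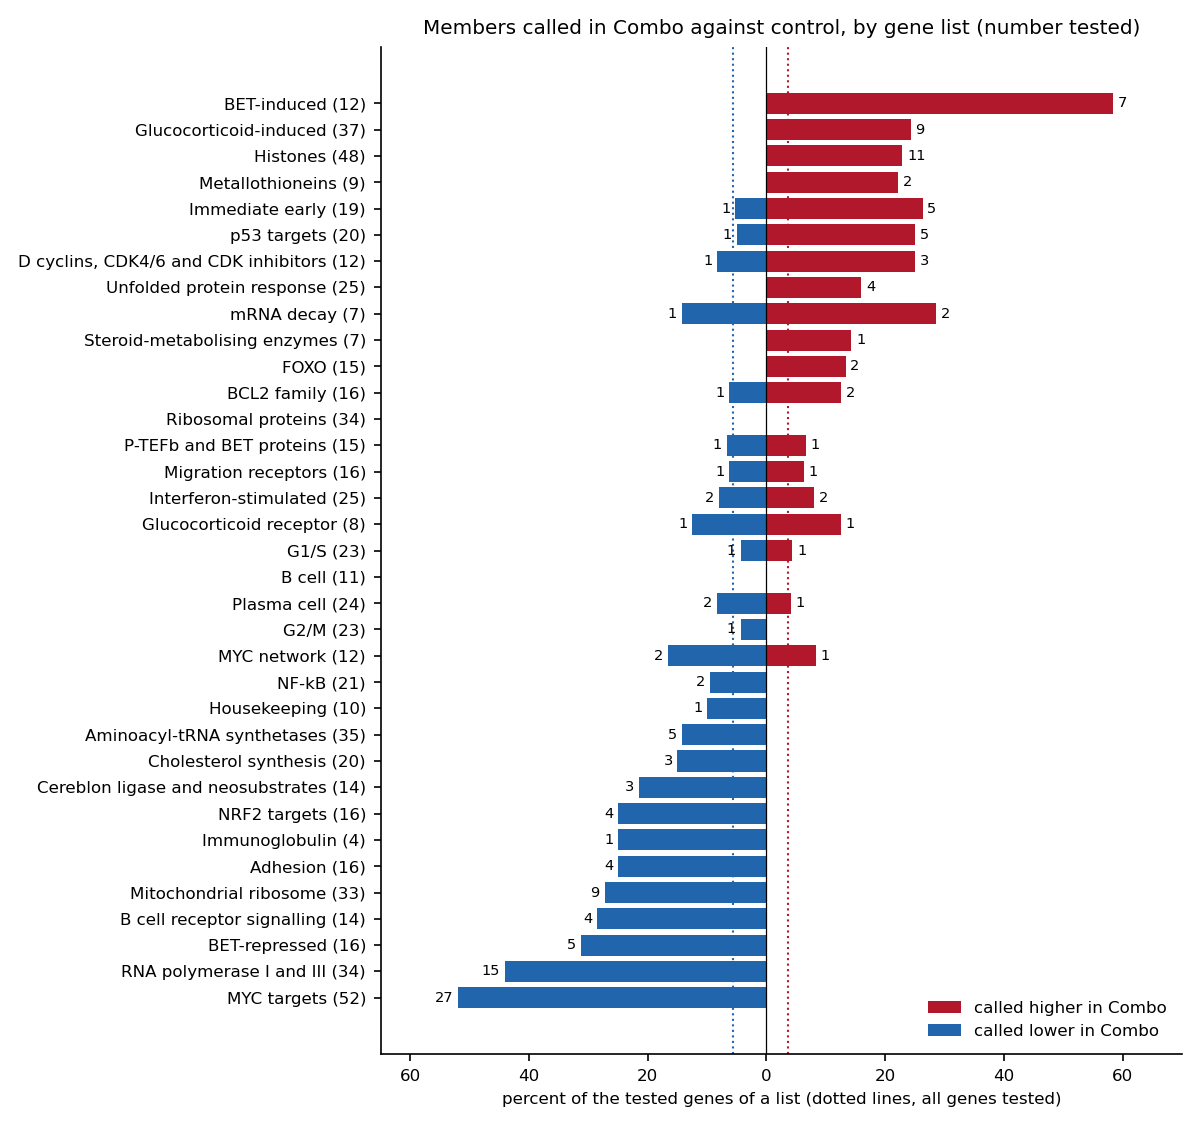
Each bar is the percent of the tested genes of a list that were called in Combo against control, higher to the right in red and lower to the left in blue, with the number called at its end and the number tested in brackets. Dotted lines mark the 3.55% and 5.6% of all genes called higher and lower, and the BET-induced list (7 of 12) and the MYC targets (27 of 52) reach farthest from them.

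Glucocorticoid-induced genes were higher where they were called. Of 37 tested, 9 were higher and 0 lower, with a median of 0.33, and by role these were 2 of 11 transcription factors, 2 of 12 signalling brakes and 5 of 14 chaperone, metabolic and surface genes. Besides TSC22D3, FKBP5, CXCR4, DDIT4, PER1 and MT1X they were TXNIP, SESN1 and MT2A. TXNIP, which limits glucose uptake and thioredoxin, rose by 1.61 ± 0.22 (adjusted p = 0.00486). TXNIP stood at 12.65, 11.94 and 11.51 in Combo cells and at 11.13, 10.56 and 9.57 in control cells, with no overlap. SESN1, a sestrin that restrains mTORC1, rose by 1.56 ± 0.34, and MT2A, a metallothionein, by 0.91 ± 0.18. KLF9 and ZBTB16, transcription factors that glucocorticoids induce in many tissues, were not called. ZBTB16 stood at 8.37, 4.97 and 5.05 in Combo cells and at 5.21, 4.74 and 4.79 in control cells, a gain in ARP1 of 3.16 with near 0 in both other lines. KLF9 was at 9.41, 6.30 and 5.09 in Combo cells and at 7.26, 5.28 and 5.44 in control cells (adjusted p = 0.298). NR3C1, the receptor, was at 9.72, 10.38 and 10.62 in Combo cells and at 9.76, 10.90 and 10.92 in control cells and was not called (adjusted p = 0.147). Of 10 NR3C1 probe sets tested singly, 4 were called lower, with differences from -0.66 to -0.12 over the 10. Of 8 tested genes of the receptor and its chaperones, FKBP5 was higher and FKBP4, which favours receptor activity, was lower by 0.45 ± 0.12. Without the JJN3 control array 7 of the 37 were called higher, with a median of 0.35, and with JJN3 and RPMI-8226 averaged 2.

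The response element of the receptor was looked for in the same promoter windows because several of these genes carry distal elements. The full palindromic element was found in 0 of 12192 windows, and a shorter, looser core, on either strand, in 0.262% of them. The core dropped the outermost base at each end of the palindrome. It kept its own end bases fixed and left the base next to each end free. A match can thus differ from the palindrome there, as that of TXNIP below did at both free bases. Of the 9 glucocorticoid-induced genes called higher, 1 window held the core, that of TXNIP, printed here with the core in capitals.
TXNIP: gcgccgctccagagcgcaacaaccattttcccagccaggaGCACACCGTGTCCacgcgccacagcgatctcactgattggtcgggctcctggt
It lies at chr1:145996702-145996794 (minus strand). No match in a window says only that these letters are not within it.

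Of 7 tested enzymes of steroid metabolism, UGT2B7 was higher and 0 were lower, with a median of 1.31. AKR1C2, which reduces steroids, was at 5.06, 9.65 and 10.48 in Combo cells and at 5.07, 7.29 and 7.23 in control cells, with no gain in ARP1, and was not called (adjusted p = 0.0711). UGT2B15 was at 5.56, 8.82 and 8.49 in Combo cells and at 5.11, 6.47 and 7.35 in control cells (adjusted p = 0.136). UGT2B and AKR1C genes are close paralogs whose probe sets may read more than 1 member. Of 9 tested metallothionein and zinc genes, MT1X and MT2A were higher and 0 lower. Of 15 tested FOXO factors and targets, SESN1 and TXNIP were higher and 0 lower. With the ARP1 arrays left out 5 of the 7 enzymes were higher, and with the JJN3 control array left out 0 of the enzymes and 1 FOXO gene were called.

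Few plasma cell and B cell genes were called. Of 24 tested plasma cell genes 1 was higher and 2 were lower, and of 11 tested B cell markers 0 were called. HERPUD1, an endoplasmic reticulum degradation factor, rose by 0.78 ± 0.12, with 11.60, 11.48 and 11.29 in Combo cells and 11.10, 10.58 and 10.35 in control cells, and FKBP11, a secretory pathway isomerase, fell by 0.46 ± 0.12. PRDM1 was not called (-0.59 ± 0.19, adjusted p = 0.0863), and neither was TNFRSF17 (BCMA), an antigen of myeloma immunotherapy, at 11.35, 6.81 and 7.03 in Combo cells and 11.62, 6.98 and 8.84 in control cells (adjusted p = 0.521), nor CD38 (0.11 ± 0.14, adjusted p = 0.689). The sign of the CD38 difference turned without the JJN3 arrays. Of 4 tested immunoglobulin genes IGLL5 was lower, by 1.04 ± 0.22, and it was not called without the JJN3 control array. IGLL5 stood at 11.79, 8.46 and 8.84 in Combo cells and at 12.05, 9.68 and 10.48 in control cells, with the largest fall in RPMI-8226. The part that the content of the JJN3 control array had in this and other falls was not tested.

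Of 16 tested adhesion genes 4 were lower, with 5.6% of all genes lower: besides VCAM1, ITGA4, the alpha4 integrin that binds it, fell by 1.39 ± 0.17 (adjusted p = 0.00351), ICAM2 by 0.93 ± 0.12 and CD58, the ligand of CD2, by 0.64 ± 0.16. ITGA4 stood at 8.98, 7.03 and 7.92 in Combo cells and at 9.91, 8.73 and 9.46 in control cells, lower in every line, with ARP1 Combo cells above JJN3 control cells. Of 14 tested genes of B cell receptor signalling 4 were lower, 1 of 8 kinases and adaptors and 3 of 6 brakes. The adaptor was BLNK, which fell by 0.87 ± 0.22, and the brakes were DOK3, which fell by 0.98 ± 0.24, PTPN6, and INPP5D (SHIP1), which fell by 0.53 ± 0.13. Of 16 tested migration receptors CXCR4 was higher and P2RY10 lower. ITGA4 and ICAM2 were still called without the JJN3 control array, and BLNK, DOK3 and INPP5D were not.

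Among the BCL2 family, which sets the threshold for cell death, 2 of 16 tested genes were higher and 1 was lower. Over all genes 3.55% were higher and 5.6% lower. BCL2L1 (BCL-xL), a survival protein, fell by 0.998 ± 0.17 (adjusted p = 0.011). BCL2L1 stood at 6.16, 7.63 and 7.47 in Combo cells and at 6.74, 8.87 and 8.65 in control cells, lower in each line, with overlap because ARP1 was low in both groups. Of 3 BCL2L1 probe sets tested singly, 1 was called lower, with differences from -0.998 to -0.04 over the 3. BBC3 (PUMA), a BH3-only protein that triggers death, rose by 1.02 ± 0.15 (adjusted p = 0.00701). BBC3 stood at 6.51, 9.28 and 9.52 in Combo cells and at 5.74, 8.52 and 7.997 in control cells, higher in each line. BIK, also BH3-only, rose by 0.43 ± 0.11. BCL2L11 (BIM), which glucocorticoids raise in lymphoid cells, was at 8.97, 6.34 and 5.82 in Combo cells and at 7.41, 6.13 and 5.70 in control cells, a gain above 1 in ARP1 alone, and was not called (adjusted p = 0.19). MCL1, on which myeloma cells depend, had a difference of 0.48 ± 0.14 (adjusted p = 0.0652), and BCL2 one of -0.10 ± 0.15 (adjusted p = 0.738), whose sign turned without the ARP1 arrays. Only 1 of the 16, called higher, passed without the JJN3 control array.

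Cell cycle genes were near the background. Of 23 tested G1/S genes 1 was higher and 1 lower, and of 23 tested G2/M genes 0 were higher and 1 lower, against 3.55% and 5.6% of all genes. TK1, thymidine kinase, rose by 0.54 ± 0.13, MCM10, a replication factor, fell by 0.48 ± 0.12, and AURKA, the mitotic kinase, fell by 0.58 ± 0.12. Of 12 tested D cyclins, their kinases and CDK inhibitors, 3 were higher and 1 lower. Besides SERTAD1, the D cyclin CCND3 rose by 1.09 ± 0.25 and the CDK4 inhibitor CDKN2D (p19) by 0.70 ± 0.16, while CDK4 fell. CCND3 stood at 10.43, 9.67 and 9.34 in Combo cells and at 8.99, 9.01 and 8.15 in control cells, with no overlap. CCND2, a D cyclin, was at 11.97, 12.85 and 12.81 in Combo cells and at 12.46, 12.73 and 12.84 in control cells and was not called (adjusted p = 0.743), and its sign turned without the ARP1 arrays. CDKN1A (p21) was at 7.69, 11.64 and 11.69 in Combo cells and at 7.18, 10.59 and 10.22 in control cells, and was not called (adjusted p = 0.293). Of 20 tested p53 targets 5 were higher and 1 was lower. They were BBC3, SESN1, SESN2, which rose by 0.75 ± 0.11, TP53INP1, which rose by 0.74 ± 0.13, and XPC, which rose by 0.66 ± 0.13, while the death receptor FAS fell by 0.83 ± 0.13. Leaving the JJN3 control array out left 0 calls in the G1/S, G2/M and D cyclin lists, and 3 higher and 2 lower p53 targets.

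Early response and stress genes followed. Of 19 tested immediate early genes 5 were higher and MYC was lower, with 3.55% of all genes higher and 5.6% lower. Besides KLF6 and JUND, the AP-1 subunit JUN rose by 1.34 ± 0.27 (adjusted p = 0.0178), ATF3, a stress-induced repressor, by 1.39 ± 0.36, and IER5 by 0.60 ± 0.12. JUN stood at 8.03, 10.43 and 10.21 in Combo cells and at 6.66, 8.93 and 9.05 in control cells, higher in each line, with ARP1 Combo cells below JJN3 and RPMI-8226 control cells. FOS, its partner, was at 6.39, 7.31 and 6.03 in Combo cells and at 5.82, 5.51 and 5.47 in control cells, and was not called (adjusted p = 0.0505). Of 25 tested genes of the unfolded protein response 4 were higher and 0 lower: HERPUD1, ATF3, EIF2AK3 (PERK), a sensor kinase, by 0.58 ± 0.15, and PPP1R15A (GADD34), which restores translation, by 0.93 ± 0.24. The chaperone HSPA5 (BiP) had a difference of 0.01 ± 0.11 (adjusted p = 0.981). Of 7 tested mRNA decay genes the ZFP36 family, which destabilises AU-rich messages, split: ZFP36 rose by 1.67 ± 0.32 and ZFP36L2 by 1.21 ± 0.14, and ZFP36L1 fell by 1.29 ± 0.16 (adjusted p = 0.00354). ZFP36L1 stood at 9.09, 10.12 and 9.91 in Combo cells and at 10.67, 11.26 and 11.05 in control cells, lower in each line and without overlap. Of 4 ZFP36L1 probe sets tested singly, 1 was called lower, with differences from -1.29 to -0.01 over the 4. On the arrays other than the JJN3 control, 0 immediate early genes were higher and 1 was lower, 1 gene of the unfolded protein response was higher, and of the mRNA decay genes 1 was higher and 1 lower.

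Of 16 tested NRF2 antioxidant targets 4 were lower and 0 higher. HMOX1, heme oxygenase, fell by 1.22 ± 0.20 (adjusted p = 0.00922), with 8.83, 8.24 and 7.44 in Combo cells and 10.10, 9.36 and 8.71 in control cells, lower by more than 1 in each line. SLC7A11, the cystine importer, fell by 0.90 ± 0.14, ABCC1, a drug exporter, by 0.88 ± 0.21, and NFE2L2, which encodes NRF2, by 0.59 ± 0.16. Of 20 tested cholesterol synthesis genes 3 were lower and 0 higher, MSMO1 by 0.64 ± 0.11, CYP51A1 by 0.52 ± 0.12 and SQLE by 0.50 ± 0.12. Of 21 tested NF-kB genes 2 were lower and 0 higher, the inhibitor NFKBIE by 0.74 ± 0.14 and the subunit NFKB2 by 0.53 ± 0.11. Of 25 tested interferon-stimulated genes 2 were higher and 2 lower: IRF9, a subunit of the interferon-activated factor, rose by 0.52 ± 0.11 and the exonuclease ISG20 by 0.73 ± 0.20, while IFIH1 (MDA5), an RNA sensor, fell by 0.62 ± 0.10 and IFI44 by 0.53 ± 0.14. Of 10 tested housekeeping genes TBP was lower, by 0.56 ± 0.14, and 0 were higher. Over all genes 3.55% were higher and 5.6% lower, and the small NF-kB, interferon-stimulated and housekeeping counts lay near those shares. When the JJN3 control array was left out, 2 NRF2 targets and 2 cholesterol synthesis genes were called lower, and 0 NF-kB, interferon-stimulated or housekeeping genes were called.

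CPI203 alone and LenDex were set beside the combination. Combo, CPI203 and LenDex differences from control share the same 3 control arrays, so they are given side by side and not correlated. CPI203 alone gave 1 called gene (0.00659%) and LenDex 70 (0.461%), against 1388 with Combo. At an unadjusted limma p under 0.05 there were 2456 genes (16.2%) with CPI203, 2079 (13.7%) with LenDex and 3692 (24.3%) with Combo. The counts of calls thus differed far more between the treatments than the counts at an unadjusted p. TSC22D3 differed by 3.84 with Combo, 3.51 with LenDex and 0.19 with CPI203, and FKBP5 by 1.87, 1.81 and -0.05. SERPINI1 differed by 1.63 with Combo, 0.12 with LenDex and 1.26 with CPI203, and H2BC5 by 1.51, 0.31 and 1.25. For the glucocorticoid targets the LenDex value lay near that of Combo, and for the BET markers the CPI203 value did. MYC differed by -0.81 with Combo, -0.37 with LenDex and -0.58 with CPI203, IKZF1 by -1.22, -0.32 and -1.18, and POLR1B by -1.28, -0.67 and -0.71. The median of the MYC targets was -0.42 with Combo and -0.26 with each of LenDex and CPI203, and that of the BET-induced list 1.08 with Combo, 0.06 with LenDex and 1.17 with CPI203.

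Combo was tested directly against CPI203 and against LenDex. Against CPI203 alone, 7 genes were called (0.0461%), 4 higher (0.0264%) and 3 lower (0.0198%) in Combo cells, with 1658 at an unadjusted p under 0.05. TSC22D3 was higher by 3.65 ± 0.34 (adjusted p = 0.00437), CXCR4 by 2.62 ± 0.20, FKBP5 by 1.92 ± 0.12 and ZFP36L2 by 1.44 ± 0.14. The 3 lower genes were YRDC, which modifies transfer RNA, MARS2, and ZNHIT6, an assembly factor of nucleolar particles, with differences of -0.86 ± 0.11, -0.78 ± 0.10 and -0.72 ± 0.10. The count was 0 without the JJN3 arrays, 2 without RPMI-8226, 103 without ARP1 and 4 without the JJN3 control array alone. Against LenDex, 0 genes were called by limma (0%), with 2264 at an unadjusted p under 0.05, and 715 were called without the ARP1 arrays. The smallest p values there belonged to H3C4, FERMT1 (kindlin-1), an integrin activator, and H2BC5, with differences of 1.57 (95% interval 1.17 to 1.97), -1.15 (95% interval -1.47 to -0.83) and 1.20 (95% interval 0.87 to 1.53). The difference of Combo from LenDex was -0.44 (95% interval -0.77 to -0.11) for MYC and -0.90 (95% interval -1.49 to -0.31) for IKZF1. The interaction, the departure of the Combo change from the sum of the changes with CPI203 and with LenDex, gave 0 calls (0%), with 472 genes (3.11%) at an unadjusted p under 0.05. It was 0.14 (95% interval -0.33 to 0.60) for MYC, 0.28 (95% interval -0.55 to 1.104) for IKZF1, -0.25 (95% interval -0.87 to 0.37) for IKZF3 and 0.14 (95% interval -0.93 to 1.20) for TSC22D3. The intervals, which are not adjusted for the number of genes, include 0 for these 4 genes, and a missed threshold does not show that the drugs add exactly. The genes with the smallest interaction p were ZNF101, HIVEP3 and SEMA6A, with -0.85 (95% interval -1.17 to -0.53), 0.88 (95% interval 0.49 to 1.27) and 0.72 (95% interval 0.36 to 1.08), none of them called. On simulated data 51.6% of 2-fold and 85.2% of 3-fold interactions were recovered.

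**Figure D4:**
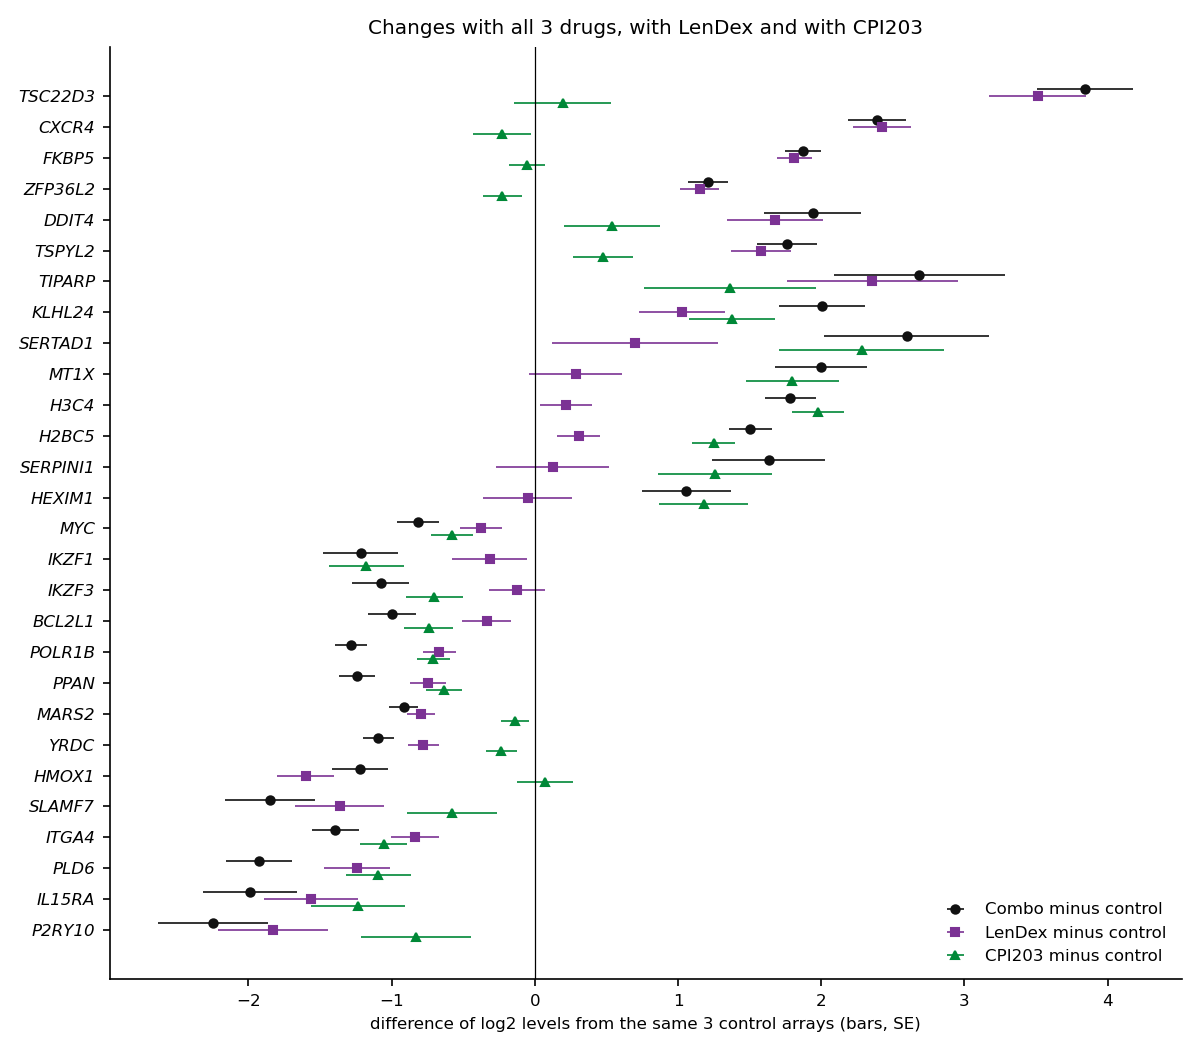
Points are differences of log2 levels from the same 3 control arrays on the x axis, for Combo (black circles), LenDex (purple squares) and CPI203 (green triangles), with SE bars, for 28 named genes down the y axis. TSC22D3, CXCR4 and FKBP5 have LenDex values near Combo and CPI203 values near 0, and SERPINI1 and H2BC5 have CPI203 values near Combo.

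The changes were smaller in ARP1 than in both other lines, a difference in overall size that was not tested. The median absolute Combo change of the 1388 called genes was 0.44 for ARP1, 0.69 for JJN3 and 0.82 for RPMI-8226, and over all genes tested it was 0.18, 0.22 and 0.24. A test of line differences in the Combo effect, which assumes that the drugs add, called 24 genes (0.158%), and 0 of them were among the 1388. A change that differs between lines widens the SE of Combo against control, so this lack of overlap is largely built in. Of the 24, 15 had opposite signs in ARP1 and in both other lines. OXTR, the oxytocin receptor, changed by 0.44, -2.05 and -2.44 in the 3 lines, TLR10, a Toll-like receptor of B cells, by 0.37, -2.39 and -3.23, and GPR183 (EBI2), which guides B cells, by 0.07, -2.77 and -2.69. AKR1C2 changed by -0.01, 2.36 and 3.25 and DUSP2, a phosphatase of MAP kinases, by -1.17, 1.16 and 1.13. MXD1, a MAX partner that opposes MYC, changed by -0.42, 1.56 and 1.37, and IKZF2 (Helios), an Ikaros relative, by 0.17, -1.99 and -1.86. ZBTB16 changed by 3.16, 0.23 and 0.26 and was thus the reverse case, with its gain in ARP1. The erythroid factors KLF1, LMO2 and TAL1 changed by -0.27, -2.74 and 0.20, by -0.80, -3.30 and -0.25 and by 0.25, -2.07 and 0.10, falls seen on the JJN3 arrays. ARP1 started near the floor for OXTR, TLR10 and GPR183, at 5.45, 4.93 and 4.81 in control cells. Each line gave 1 Combo and 1 control array, the test called 0 genes without the JJN3 control array, and on simulated data it recovered 0% of 3-fold differences.

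**Figure D5:**
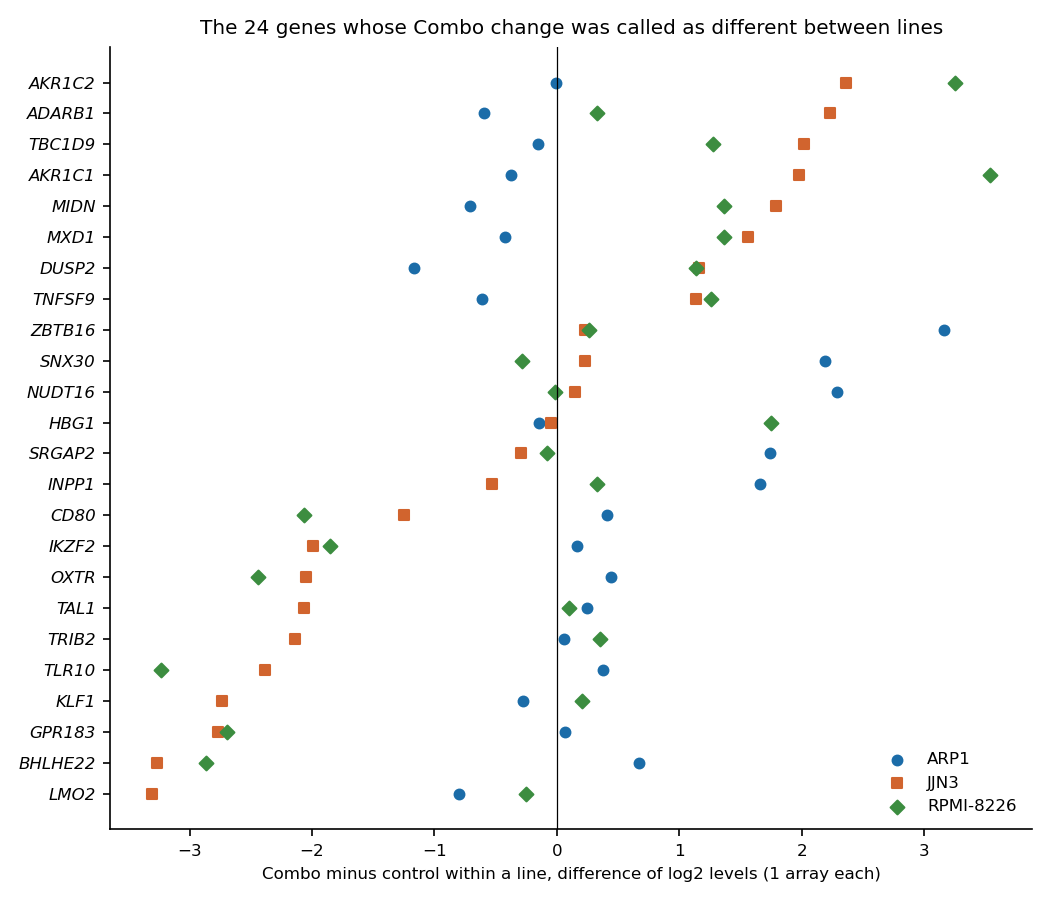
Points are the Combo minus control change of log2 level within ARP1, JJN3 and RPMI-8226 on the x axis, 1 array per treatment and line, for the 24 genes called in the test of line differences down the y axis. For 15 of the 24 the ARP1 point lies on the other side of 0 from both other lines.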

How the data were processed

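Transcripts were measured on single-colour Affymetrix arrays, 1 for each of 3 lines and 4 treatments. The authors deposited log2 probe set levels, and the submitters' processing notes name RMA and Affymetrix Expression Console 1.1. Their range shows a log2 scale, and whether all 12 arrays were normalised together is not given in the sources used here. RMA as published gives all arrays 1 distribution, so a change is relative to most other transcripts. Of 49386 probe sets, 45253 had 1 gene symbol in the platform annotation, 1327 several, 2713 none and 93 were controls. The symbols were updated through gene identifiers of the RefSeq table, which matched 45172. Probe sets with several symbols named no gene, and no gene named in Combo against control had probe sets called in opposite directions. With probe sets tested singly, some named calls rested on 1 of several. These include CACNB2 (1 of 8, differences -1.66 to -0.03), PER1 (1 of 3, 0.007 to 1.76) and ATF3 (1 of 6, 0.13 to 1.39). Some genes named as called had no probe set called when tested singly. These include FKBP11 (0 of 2, -0.46 to 0.15), IARS1 (0 of 4), IFI44 (0 of 5), PPAT (0 of 2), ISG20 (0 of 1) and LARS2 (0 of 1). For others every probe set was called, as for TSC22D3 (3 of 3), CDK4 (4 of 4) and TXNIP (5 of 5).

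The probe set with the highest mean stood for each of 18239 genes, and 15173 of them, those reaching log2 5 on 3 arrays or more, were tested in limma 3.58.1 (R 4.3.3), with line and treatment as terms over 12 arrays (6 residual degrees of freedom), two-sided, with Benjamini-Hochberg adjustment. The line is the pairing, since arrays of 1 line share their cells, and the deviations of same-line arrays from group means had correlations of 0.820 to 0.938. Nothing in the labels says that arrays of a line came from separate cultures, and the number of arrays limits the precision. The line difference was a moderated F test of line by drug terms with no interaction of the drugs (3 residual degrees of freedom).

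The groups compared, gene lists and tests were chosen with earlier results of these data known. The rule for names took, of called genes with 1 sign in every line, the 15 that rose most and the 15 that fell most, a panel of genes of interest, and up to 4 called members of each list by smallest p, or 2 members where none was called. For the other contrasts it took the called genes, or the 3 with the smallest p. Other list members and the genes of the line difference were named after their values were seen. Lists are described by counts and medians, with no set test. Alternatives were the level filter, single probe sets, median centring, cyclic loess, a variance trend with robust fit, leaving out each line or the JJN3 control array, averaging JJN3 with RPMI-8226, no block, and the 6 arrays alone. On simulated data with 200 genes changed out of 15173, the fit of Combo against control found 38.8% of the genes changed 1.5-fold, 81.2% of those changed 2-fold and 96.1% of those changed 3-fold.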

Additional observations from a re-analysis of the deposited data

Results flagged for a closer look

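The Combo change differed between the lines for 6 genes with the smallest p in that test, each at an adjusted p of 0.0404 by limma's moderated F test, with 1 Combo and 1 control array a line. In the order ARP1, JJN3, RPMI-8226, OXTR changed by 0.44, -2.05 and -2.44, TLR10 by 0.37, -2.39 and -3.23 and GPR183 by 0.07, -2.77 and -2.69. AKR1C2, a steroid reductase, changed by -0.01, 2.36 and 3.25, its paralog AKR1C1 by -0.38, 1.98 and 3.54, and DUSP2 by -1.17, 1.16 and 1.13. AKR1C1 and AKR1C2 are close paralogs whose probe sets may read both. None of the 6 was called in Combo against control, where a difference between lines widens the SE. None was called as differing between lines without the JJN3 control array.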

How the results depend on the processing

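The 1388 calls of Combo against control became 2349 with probe sets tested singly, 300 without the JJN3 control array, 3 with JJN3 and RPMI-8226 averaged, 3 with no replicate block (no pairing by line) and 2 with the 6 arrays alone, and lay between 0 and 2219 when each line was left out in turn. The 7 calls of Combo against CPI203 became 12 at a mean level of 6 or more, 36 with single probe sets, 86 with a variance trend, 4 without the JJN3 control array, 2 with the lines averaged, 1 with no replicate block and 0 with the 6 arrays of those groups, and lay between 0 and 103 with each line left out. The 0 calls of Combo against LenDex became 4 at a mean level of 6 or more, 2 with single probe sets, 2 with cyclic loess and 61 with a variance trend, and lay between 0 and 715 with each line left out, the 715 being without ARP1. The interaction gave 0 calls under every alternative run. The 24 line differences became 56 with no level filter, 93 at a mean level of 6 or more, 729 with a variance trend and 0 without the JJN3 control array. Reasons for these moves beyond fewer arrays or other genes tested were not tested.

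Of 141 named genes 112 were called, and 0 of these changed sign under any alternative run. Among the uncalled, ZNF101 (0.01) turned to -0.019 with median centring or cyclic loess, -0.017 with the lines averaged or without the JJN3 control array, and -0.025 and -0.0092 without JJN3 and RPMI-8226. SEMA6A (-0.02) turned to 0.0050 with cyclic loess and to 0.015 and 0.080 without JJN3 and ARP1. Without ARP1, BCL2 turned to 0.073 and CCND2 to 0.043, and CD38 turned to -0.11 without JJN3 and to -0.077 without the JJN3 control array.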
